A study of Mus musculus with 24 samples.

Results

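Meg3, Rian, Mirg, Miat, Snhg11, Malat1 and Neat1 are 7 long non-coding RNAs that are usually discussed together in neurons, and they are described here as 7 of the 54235 features counted in single cells of the mouse motor cortex and dorsal striatum. They were chosen by symbol, with their levels per cell type, in barcodes of few counts and by library kit already known. Those levels are therefore descriptions without a test, and tests are given only for training stage, hemisphere, reporter state and the difference between regions. The name "long non-coding RNAs of neurons" held for 4 of the 7 in both regions: Meg3, Rian, Mirg and Snhg11 were higher in neurons than in other cells in every pool. Miat was higher in neurons only in motor cortex, and Malat1 and Neat1 were lower in neurons than in other cells in all 12 pools. The striatal neuroblasts and progenitors, with a lower mean level of Malat1 than the neurons, are in neither group.

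The mice carried a recombinase under an activity-regulated gene together with the Ai9 tdTomato reporter. Fos-CreER::Ai9 mice gave the motor cortex libraries and Arc-CreER::Ai9 mice the dorsal striatum libraries, so region and driver line cannot be told apart. Early mice had 2 days and late mice 8 days of training in forelimb reaching, controls were not trained, and all groups received 4-hydroxytamoxifen (4-OHT), which lets the recombinase act. Tissue was taken 3 days after labelling, digested with papain. Each hemisphere was pooled over 2 mice (an M and an F), and neither age nor strain background is given in the sources used here. There were 2 pools for each region and stage, and the pool was the unit of replication. Control replicate 1 of the dorsal striatum rests on its left hemisphere, and its right hemisphere was not analysed here.

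The 23 matrices held 127901 barcodes of at least 500 unique molecular identifiers (UMIs, a count of captured RNA molecules), with 5260446 to 30470621 UMIs per library. After filters and removal of 5103 presumed doublets, 98612 cells were kept, 47985 from motor cortex and 50627 from striatum, and 22032 barcodes held fewer than 1000 UMIs. Cells were clustered and named from marker genes ("-like"), and 23 combinations of class and region had at least 20 cells in every pool. Cells without a name numbered 554 in motor cortex and 708 in striatum. The labels name 2 versions of the kit without saying which library used which, so libraries were sorted by the barcodes they share. Libraries of barcode class A shared 1.31 barcodes per 1000000 pairs, libraries of class B 0.261 and libraries of different classes 0.024. Class A held replicate 1 of the control and late groups of each region (4 pools), and class B the other 8 pools. Within a region the 2 class A pools also shared a sequencing batch that held no class B pool, so kit, sequencing batch and pool cannot be told apart here.

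Meg3, Rian and Mirg are transcribed one after the other from the maternal copy of the imprinted Dlk1-Dio3 domain, whose coding genes Dlk1, Rtl1 and Dio3 are read from the paternal copy. Meg3 acts mainly in the nucleus, Rian is a host of small nucleolar RNAs, and Mirg is a host of a large microRNA cluster. Miat, also called Gomafu, is a nuclear RNA that binds splicing factors, and Snhg11 is a small nucleolar RNA host gene. Malat1 gathers in nuclear speckles, where splicing factors are stored, and Neat1 is the scaffold of paraspeckles, nuclear bodies that hold back RNAs and proteins.

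On the GRCm38 build with the GENCODE M21 annotation, Meg3 lies at chr12:109541001-109571726, Rian at chr12:109603940-109661716 and Mirg at chr12:109729764-109749460, all on the plus strand. Miat lies at chr5:112213228-112229395 on the minus strand, and Snhg11 at chr2:158375638-158386145 on the plus strand. Malat1 (chr19:5795690-5802672) and Neat1 (chr19:5824708-5845478) are neighbours on the minus strand. GENCODE M21 lists Snhg11 as protein coding, and RefSeq lists it as a long non-coding RNA. The body of Mirg holds 15 annotated microRNA genes, that of Rian holds 4 microRNA and 13 small nucleolar RNA genes, and that of Meg3 holds 2 microRNA genes. Overlapping genes took few of the reads: Gm26945, on the same strand, had 0.913% as many UMIs as Rian. Antisense Gm26953 had 0.416% as many as Miat, antisense Gm37376 had 0.0573% as many as Malat1 and antisense Gm26906 had 0.0189% as many as Meg3.

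The promoters of the 3 RNAs of the imprinted domain are shown because their patterns over cell classes were alike. Each runs from 250 bases before to 50 after the RefSeq start (GRCm38.p6), on the plus strand from 5′ to 3′, and capitals mark matches to the motifs searched on both strands. These were TGACGTCA (the cAMP response element), the TATA box in its forms TATATAA (long) or TATAAA (short), which can overlap each other, and the CCAAT box.
Meg3 promoter, chr12:109540746-109541045: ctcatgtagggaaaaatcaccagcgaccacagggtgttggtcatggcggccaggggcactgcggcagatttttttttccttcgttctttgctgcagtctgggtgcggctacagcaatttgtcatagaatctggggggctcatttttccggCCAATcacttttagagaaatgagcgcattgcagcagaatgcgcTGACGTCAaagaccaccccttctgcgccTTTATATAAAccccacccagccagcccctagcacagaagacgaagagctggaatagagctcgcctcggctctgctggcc
Rian promoter, chr12:109603695-109603994: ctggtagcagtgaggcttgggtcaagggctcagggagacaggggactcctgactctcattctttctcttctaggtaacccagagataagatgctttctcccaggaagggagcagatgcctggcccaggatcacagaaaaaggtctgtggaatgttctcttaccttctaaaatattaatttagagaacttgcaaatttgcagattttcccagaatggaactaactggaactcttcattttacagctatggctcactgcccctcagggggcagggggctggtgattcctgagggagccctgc
Mirg promoter, chr12:109734731-109735030: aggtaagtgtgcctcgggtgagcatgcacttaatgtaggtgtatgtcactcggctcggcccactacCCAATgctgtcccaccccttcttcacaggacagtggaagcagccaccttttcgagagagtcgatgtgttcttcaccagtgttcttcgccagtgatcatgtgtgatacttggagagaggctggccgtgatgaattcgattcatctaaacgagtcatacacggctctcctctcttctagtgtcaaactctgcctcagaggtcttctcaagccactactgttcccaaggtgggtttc
The RefSeq start of Mirg lies inside its GENCODE body, so the Mirg window is a stretch within that body. It holds the mature microRNAs miR-668-5p, miR-668-3p and miR-485-3p. All 4 motifs were found in the Meg3 window shown, none in the Rian window and CCAAT alone in the Mirg window. Over 32851 RefSeq promoters of the same length, TGACGTCA was found in 1.79%, TATATAA in 3.24%, TATAAA in 13.6% and CCAAT in 37.4%. The Meg3 window shown held 13 CpG pairs, the Rian window 0 and the Mirg window 10, against a median of 7 over all promoters. RefSeq lists a second Meg3 start, whose window (chr12:109545148-109545447) held none of the 4 motifs and 1 CpG pair. Snhg11 (21 CpG pairs) and Miat (25) had windows rich in CpG, Malat1 had 10, and none of these 3 held any of the 4 motifs.

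The 3 RNAs also host microRNAs that a poly(A)-primed 3′ library does not count, so the host RNA is the part of these genes measured here. By RefSeq positions, 3 mature microRNAs lay inside the GENCODE body of Meg3, 6 inside that of Rian and 26 inside that of Mirg. Those of Mirg had 25 different seeds. The RefSeq start of Mirg lies further on, and miR-134-5p and miR-382-5p lie before it. These 6 are shown as examples from each host, with the seed (bases 2 to 8) in capitals, and the last 2 are those that share a seed.
miR-770-5p, in Meg3: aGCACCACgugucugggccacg
miR-370-3p, in Rian: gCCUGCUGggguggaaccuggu
miR-134-5p, in Mirg: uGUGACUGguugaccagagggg
miR-382-5p, in Mirg: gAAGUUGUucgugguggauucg
miR-453, in Mirg: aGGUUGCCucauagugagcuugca
miR-496a-5p, in Mirg: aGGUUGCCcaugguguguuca
The counts carry no information on how much of any microRNA was cut from its host.

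Meg3 was far higher in neurons than in other cells. In motor cortex, Meg3 stood at 7610 ± 443 CPM in all neurons and at 437 ± 41.1 in other cells (SD, n = 6 pools). The ratio was 14.7 to 20.3 per pool. In striatum Meg3 stood at 8662 ± 872 against 615 ± 275, a ratio of 7.63 to 22.6. Neuroblast- or progenitor-like cells of the striatum (1330 ± 483) were counted in neither group, here and in the neuron to other ratios below. Levels are UMIs per 1000000 UMIs of the same cells (CPM). They are not corrected for length, so genes are not compared with each other.

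Among neurons, Meg3 was highest in GABAergic interneuron-like cells. In motor cortex these cells held 13765 and 12903 CPM in the control pools, 10804 and 10844 in the early pools and 13147 and 12134 in the late pools. Glutamatergic neuron-like cells held 7218 and 7018 in controls, 6359 and 5928 in early pools and 6084 and 7032 in late pools, so every interneuron value was above every glutamatergic value. The next class, oligodendrocyte precursor-like cells, had 1278 ± 309, and astrocyte-like cells had the lowest level with 60.5 ± 41.7. In striatum the order was GABAergic interneuron-like (14376 ± 1411), cholinergic neuron-like (9159 ± 1691) and spiny projection neuron-like cells (7780 ± 647). The first did not overlap with the second, while the second overlapped with the last. Neuroblast- or progenitor-like cells (1330 ± 483) came next, and oligodendrocyte-like cells were lowest (185 ± 92.3). Of these 788 cells, 607 came from a cluster that scored highest for committed oligodendrocyte precursors, with Gpr17 and Bcas1 among its leading genes. Of the 546 oligodendrocyte-like cells of motor cortex, 378 came from a cluster that also scored highest for these precursors, with Gpr17 and Enpp6 among its leading genes.

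Within the neuron classes, Meg3 also differed between clusters. A glutamatergic neuron-like cluster led by Tshz2, Lypd1 and Myl4 held 13940 ± 1610 CPM, whereas the means of 5 other glutamatergic clusters lay between 5478 and 6858. A further cluster of 78 cells had too few cells per pool to be described. Of the interneuron-like clusters of motor cortex, the one led by Vip, Tac2 and Cxcl14 was highest (17047 ± 2032) and the one led by Npy, Gad2 and Gad1 lowest (8104 ± 922). Spiny projection neuron-like clusters lay between 6397 ± 646 and 10706 ± 1016, the highest having Tac1, Nrgn and Foxp2 among its leading genes. The neuroblast- or progenitor-like class of the striatum covered the widest range. Its clusters led by the dividing-cell genes Top2a, Ube2c or Pclaf, or by Hes5 and Fabp7, held 186 to 272 CPM. The cluster led by Dcx, Adarb2 and Igfbpl1 held 6902 ± 1226, and the other clusters lay in between. These clusters were formed on variable genes with the members left out, and the values are descriptions without a test. Cells of class A made up 57.1% of one intermediate cluster (974.8 CPM) and 1.83% of another (3291).

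Rian and Mirg were, like Meg3, highest in GABAergic interneuron-like cells of both regions, and the order of the other classes differed in part. Rian reached 554 ± 63.4 CPM in GABAergic interneuron-like and 401 ± 31.7 in glutamatergic neuron-like cells of motor cortex, whose pools did not overlap, and 7.69 ± 4.05 in astrocyte-like cells. In striatum the 3 neuron classes lay at 597 ± 105, 506 ± 131 and 470 ± 90.6, with overlapping pools. Ependymal-like cells followed with 144 ± 51.3. Mirg was scarce, with 67.3 ± 7.76 in interneuron-like and 43.8 ± 5.95 in glutamatergic neuron-like cells of motor cortex, and at most 6.19 ± 2.01 in any other class there. In striatum Mirg stood at 75.7 ± 17.4 in interneuron-like, 59.9 ± 12.8 in spiny projection and 45.8 ± 16.9 in cholinergic neuron-like cells, with overlapping pools. Its neuron to other ratio was 11.0 to 25.4 in motor cortex and 6.90 to 25.3 in striatum. The coding genes of the domain were low in the same neurons. Dlk1, a Notch-like membrane protein, stood at 0.0318 CPM in glutamatergic and 16.6 in spiny projection neuron-like cells. Rtl1, a retrotransposon-derived protein, stood at 0.166 and 1.28, and Dio3, which inactivates thyroid hormone, at 0.280 and 0.672.

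**Figure D1:**
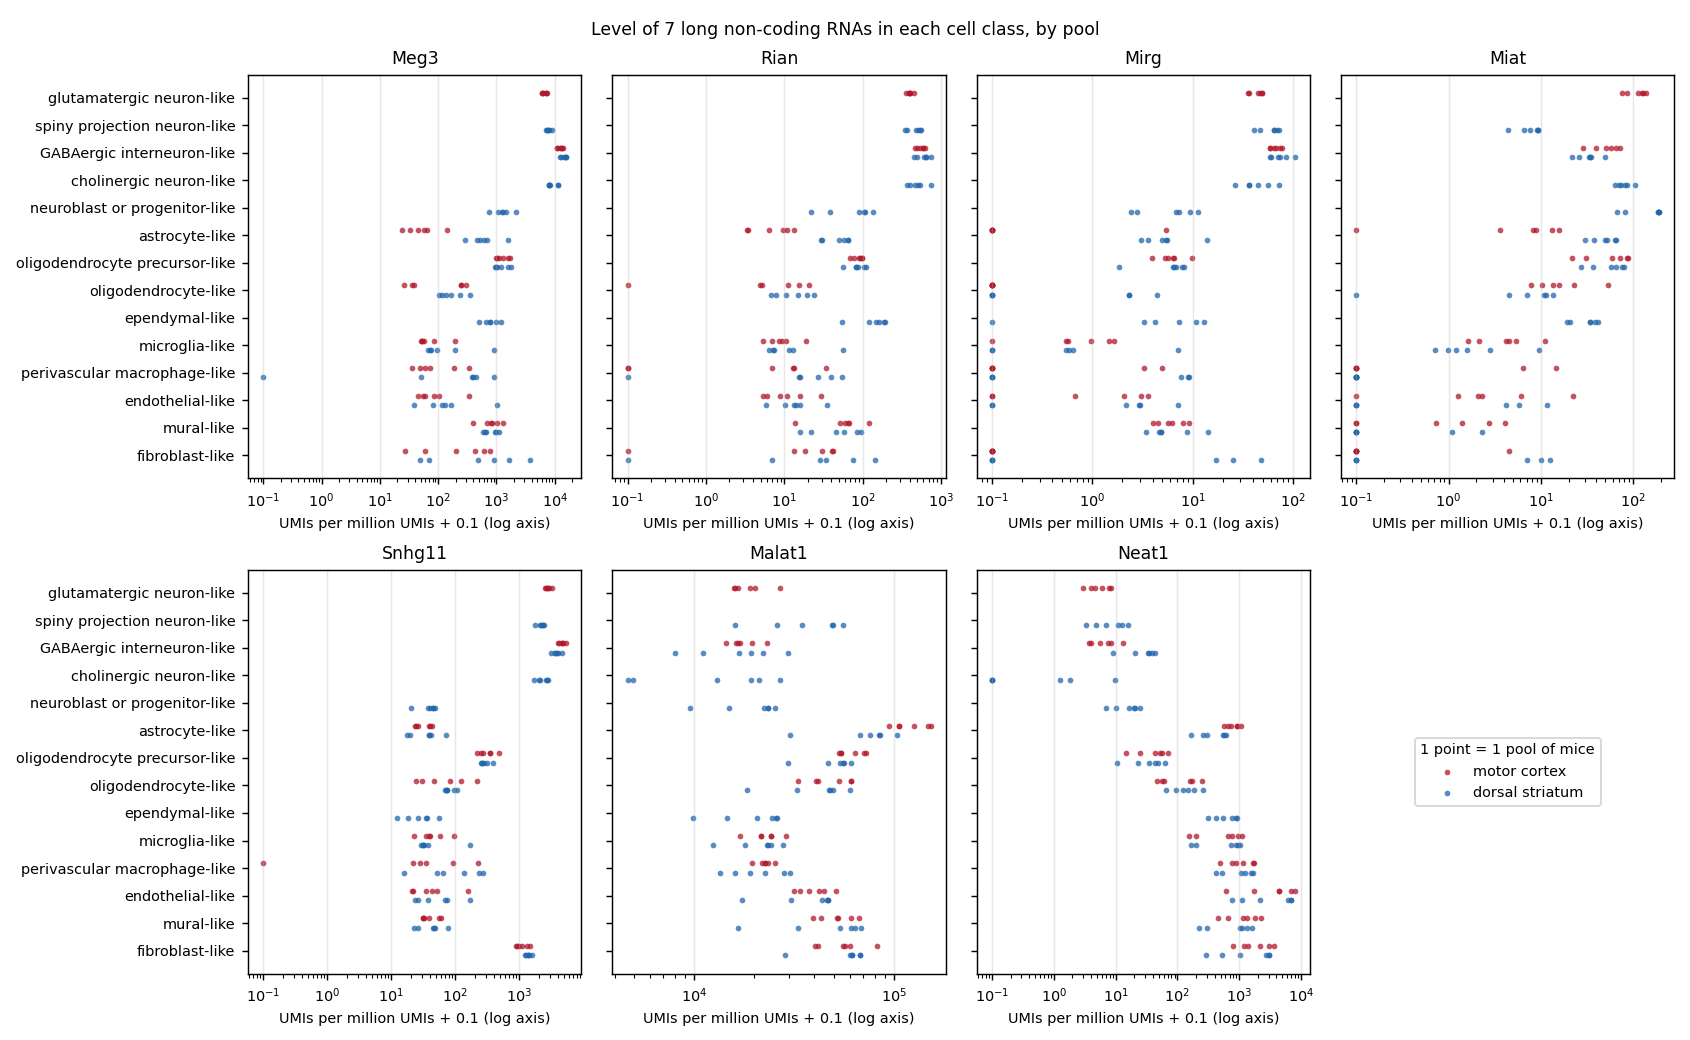
Level of each RNA in CPM plus 0.1 (log axis) in each cell class (rows), with 1 point per pool, motor cortex in red and dorsal striatum in blue. Meg3, Rian, Mirg and Snhg11 lie furthest right in the neuron classes, whereas Neat1 lies far left in the neuron classes and has its highest mean in endothelial-like cells (4344 ± 2832 in motor cortex).

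Snhg11 was higher in neurons than in other cells of motor cortex by a ratio of 19.1 to 29.7 per pool (3101 ± 234 against 126 ± 34.6 CPM). In striatum the ratio was 10.7 to 27.6. GABAergic interneuron-like cells led in both regions, with 4614 ± 489 in motor cortex and 3832 ± 529 in striatum, above glutamatergic neuron-like (2774 ± 244), cholinergic neuron-like (2311 ± 441) and spiny projection neuron-like cells (2179 ± 252). An unusual place in the order belonged to fibroblast-like cells. They held 1120 ± 245 in motor cortex and 1367 ± 131 in striatum, below every neuron pool and above every pool of the classes that followed. Meg3 stood at 349 ± 305 in fibroblast-like cells of motor cortex and between 49.4 and 3737 over the pools in those of striatum. Neuroblast- or progenitor-like cells held 39.3 ± 9.95 of Snhg11 while they held 1330 ± 483 of Meg3.

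Miat was highest in glutamatergic neuron-like cells of motor cortex and in progenitors of the striatum. In motor cortex it stood at 110 ± 25 CPM in glutamatergic neuron-like cells, 59.4 ± 27.9 in oligodendrocyte precursor-like cells and 52.3 ± 16.3 in interneuron-like cells, with overlapping pools between neighbours. Its lowest interneuron-like cluster was led by Pvalb and Tac1 (9.80 ± 3.66). In striatum it was highest in neuroblast- or progenitor-like cells (150 ± 58.8), with 395 ± 189 in their Hes5 and Fabp7 cluster. Cholinergic neuron-like cells held 80.2 ± 14.8, and spiny projection neuron-like cells only 7.59 ± 1.94. Since spiny cells made up most striatal neurons, the neuron to other ratio of Miat was 3.71 to 8.80 in motor cortex and 0.417 to 0.971 in striatum. The striatal ratio leaves out the neuroblast- or progenitor-like cells, the class with the highest mean of Miat there.

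Malat1 and Neat1, the RNAs of nuclear bodies, had lower levels in neurons as a whole than in other cells, striatal neuroblast- or progenitor-like cells left out. Malat1 was highest in astrocyte-like cells of motor cortex, with 125868 and 106373 CPM in controls, 106130 and 94218 in early pools and 148627 and 152627 in late pools. No other class of motor cortex overlapped with these pools. Both neuron classes of motor cortex were at the low end, with 19097 ± 4264 in glutamatergic and 17813 ± 3063 in interneuron-like cells. In striatum astrocyte-like cells again had the highest mean (74534 ± 24742) and cholinergic neuron-like cells the lowest (14960 ± 9023), but neighbours overlapped throughout. Spiny projection neuron-like cells, with 38468 ± 15488, ranked 7 of 13 classes, above the means of the perivascular macrophage-, microglia-, ependymal- and neuroblast- or progenitor-like cells. The ratio of neurons to other cells was 0.266 to 0.528 in motor cortex and 0.602 to 0.964 in striatum. The striatal ratio leaves out the neuroblast- or progenitor-like cells (19874 ± 6212), whose mean was below that of all striatal neurons (34802 ± 14751). The ratio with these cells included was not computed.

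Neat1 was low in neurons. It stood at 5.58 ± 2.18 CPM in glutamatergic, 6.95 ± 3.51 in cortical interneuron-like, 9.08 ± 4.95 in spiny projection and 2.09 ± 3.75 in cholinergic neuron-like cells. Striatal GABAergic interneuron-like cells were the highest of the neurons with 29.9 ± 12.9, above the mean of neuroblast- or progenitor-like cells (16.4 ± 6.77). Endothelial-like cells had the highest mean in both regions, 4344 ± 2832 and 3988 ± 2941, followed by fibroblast-like cells with 2042 (805 to 3666 over pools) and 1765 (287 to 3050). Oligodendrocyte precursor-like cells were low (43.6 ± 21.1 and 37.0 ± 18.6), and in motor cortex they did not overlap with the neurons, while in striatum they overlapped with the interneuron-like and the spiny projection neuron-like cells. Neurons as a whole held 0.00370 to 0.0131 of the level of other cells in motor cortex and 0.0129 to 0.0245 in striatum.

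Shares of cells with at least 1 UMI depend on depth, so each is given for all UMIs and after thinning cells to 1000 UMIs. Meg3 was seen in 97.9% ± 0.766 of glutamatergic neuron-like cells (median 7396 UMIs per cell) and in 96.6% after thinning. In microglia-like cells of motor cortex (median 1820.5 UMIs), which are not known as a source of Meg3, the shares were 8.12% ± 2.75 and 4.47%. Astrocyte-like cells of motor cortex were close to that, with 9.28% and 5.07%. The striatal astrocyte-like cells were not, with 31.7% ± 9.18 and 24.8%, against 10.7% ± 4.32 and 7.19% in striatal microglia-like cells. Snhg11 was seen in 97.7% and 89.6% of glutamatergic neuron-like cells and in 6.03% and 3.24% of microglia-like cells. For Neat1 the order was reversed, with 3.81% and 0.563% of glutamatergic neuron-like cells and 47.9% and 34.6% of microglia-like cells. Miat was seen in 53.1% of glutamatergic neuron-like cells and in 12.4% after thinning.

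To name other genes with a like pattern, levels over the 23 combinations of class and region were correlated on a log2 scale for 15709 genes. These points share libraries and depth, and the coefficients are descriptions. Meg3 and Rian were each other's closest match (Pearson r = 0.983), followed for both by Gm37899 (0.960 and 0.973) and B830012L14Rik (0.957 and 0.970). Mirg was closest to Meg3 (0.947), Rian (0.942) and Tasp1 (0.928). Snhg11 was closest to Slc2a13 (0.957), Frmpd4 (0.957) and Gfra4 (0.942), and Miat to Ephb2 (0.912), 4931428F04Rik (0.886) and Pcyt1b (0.884). The closest genes to Malat1 were Ccnl2 (0.903), Znrf3 (0.884) and the speckle protein gene Son (0.876), and Zfp36 (0.941) and Pnpla2 (0.931) were among those closest to Neat1. Malat1 and Neat1 themselves had r = 0.422, and Meg3 and Neat1 had r = -0.768.

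Most genes for paraspeckle proteins were not highest where Neat1 was. Of 11 genes for paraspeckle proteins, 10 had their highest mean in the neuroblast- or progenitor-like cells of the striatum, for example Sfpq with 591 CPM and Nono with 442. In the same neuroblast- or progenitor-like cells Neat1 stood at 16.4 ± 6.77. Glutamatergic neuron-like cells held 150 of Sfpq beside 5.58 of Neat1. Of 10 genes for speckle and splicing proteins, 6 had their highest mean in the same striatal neuroblast- or progenitor-like cells, and 1, Son, in astrocyte-like cells of motor cortex, where Malat1 was highest. These examples were picked after their values were seen.

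Levels of several members moved with barcode class. Neat1 was lower in the class A pool in 45 of 46 pairs of the same cell class, region and stage, with a median ratio of 0.309, the exception being late oligodendrocyte-like cells of motor cortex (2.68). Such pairs, here and below, repeat the same 4 class A pools over cell classes, so they are not independent. In endothelial-like cells of motor cortex, Neat1 stood at 623 (control) and 1732 (late) CPM in class A pools, against 6847 and 7969 in the class B pools of the same stages and 4479 and 4412 in the early pools. Striatal endothelial-like cells had 774 and 1113 in class A pools against 6780, 6876, 2139 and 6246 in class B pools. The groups did not overlap in either region. The geometric mean ratio was 0.141 in motor cortex, with 10 of 5892 genes lower, and 0.136 in striatum, with 9 of 5830 lower, while the median gene stood at 0.915 and 1.04.

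Malat1 was lower in class A in 33 of 46 pairs (median 0.757). Among striatal neurons, spiny projection neuron-like cells had 25893 (control) and 16113 (late) CPM in class A pools, against 34690, 55652, 49585 and 48876 in class B pools. Their ratio of 0.496 lay below that of all but 212 of 7182 genes (median 0.937). In endothelial-like cells of motor cortex, however, class A pools were higher (44442 against 37506 and 51074 against 42250). Miat was lower in class A in 28 of 36 pairs (median 0.589), with 85.0 and 75.1 in class A against 112 to 138 in class B glutamatergic neuron-like cells. Rian was lower in 26 of 41 pairs and Mirg in 23 of 31, with medians of 0.820 and 0.780. What distinguishes the classes besides barcodes was not tested.

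Meg3 and Snhg11 kept their level in neurons and differed in other cells. The class A to class B ratio of Meg3 was 0.943 in glutamatergic and 1.08 in spiny projection neuron-like cells, but 3.57 and 2.95 in endothelial-like cells of motor cortex and striatum. Over all classes Meg3 was higher in class A in 33 of 46 pairs (median 1.44) and Snhg11 in 28 of 45 (median 1.08). In microglia-like cells of the striatum the late pool of class A held 922 CPM of Meg3, against 66.6 to 197 in the other 5 pools. The summed level of 10 neuronal mRNAs (among them Snap25, Syt1, Rtn1, Stmn2, Stmn3, Uchl1, Camk2n1, Olfm1 and Nsg1) in the same cells was 1254 in that pool and 357 to 513 in the others. In the endothelial-like cells the list was also highest in the pools where Meg3 was highest, 2441 in control replicate 1 of motor cortex and 1374 in late replicate 1 of striatum. The part of neuronal RNA from outside the cell in these values was not tested.

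**Figure D2:**
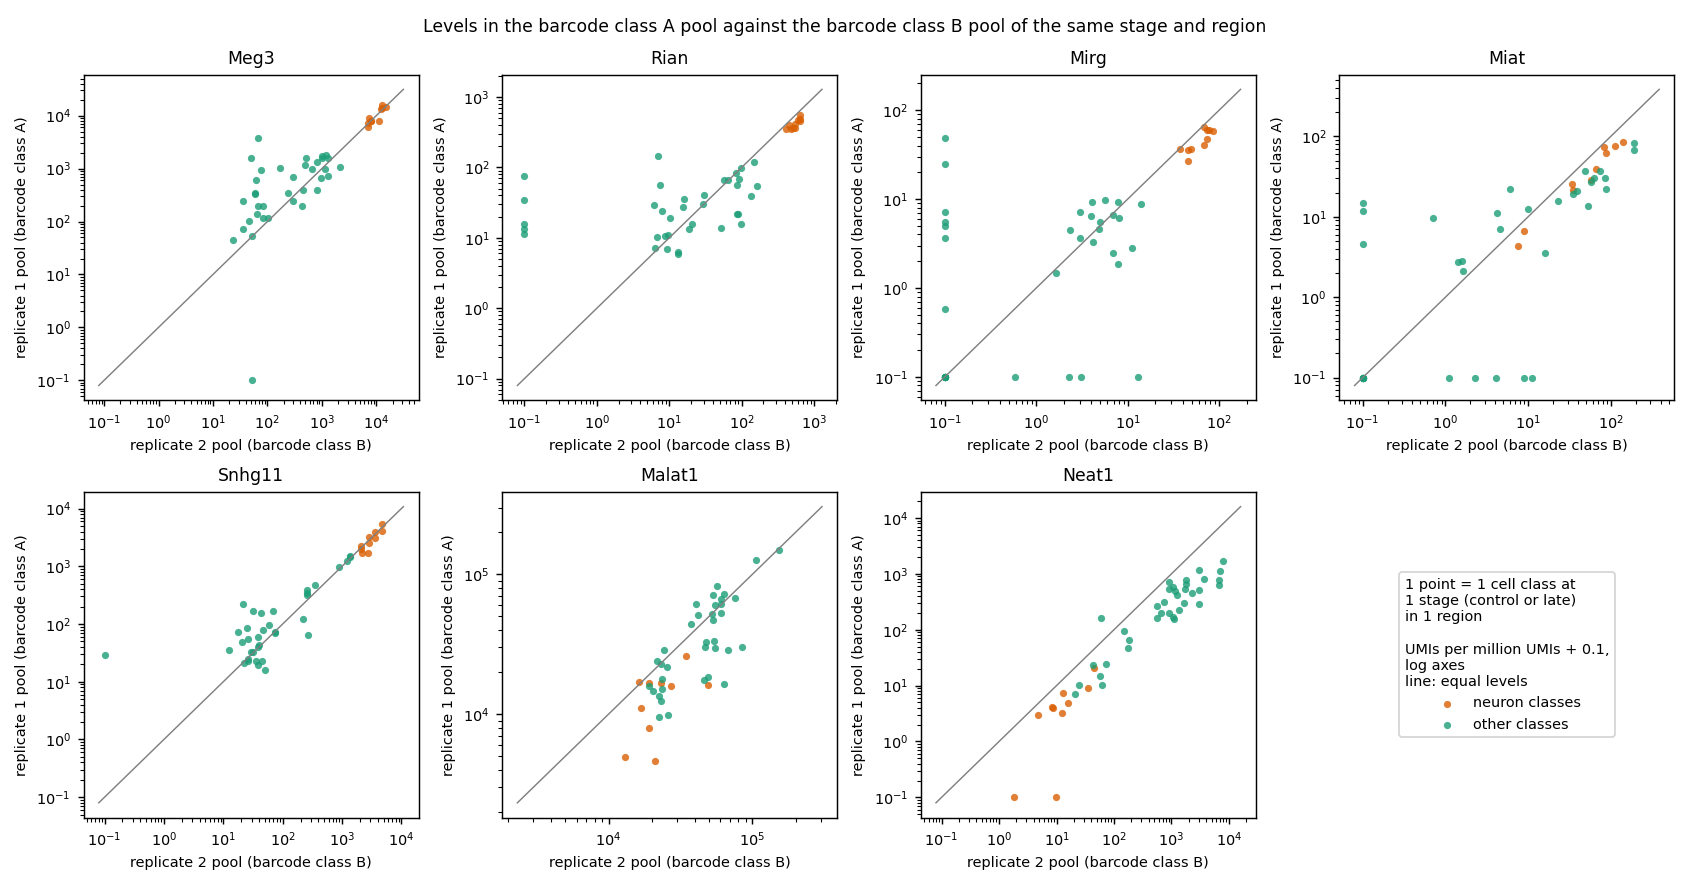
Level in the class A pool (vertical) against the class B pool (horizontal) of the same cell class, stage and region, in CPM plus 0.1 on log axes, with neurons in orange, other classes in green and the line of equal levels. For Neat1, 45 of 46 points lie below the line, and for Meg3 the neurons lie close to it while 33 of all 46 points lie above.

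Barcodes of fewer than 1000 UMIs held less of the neuronal RNAs than cells did, and more Neat1. In motor cortex Meg3 stood at 1107 ± 293 CPM in these 9537 barcodes and at 6065 ± 917 in all cells kept, a median ratio of 0.169 (0.117 to 0.272 over pools). Snhg11 had a ratio of 0.136 (0.0780 to 0.208), with 57 of 7899 genes lower. Rian (0.221), Mirg (0.230) and Miat (0.319) lay near the summed neuronal mRNAs (0.235), and the median gene stood at 0.759. Neat1 stood at a mean of 1041 against 184, a ratio of 6.70 (1.61 to 9.56), with 41 genes higher. Malat1 stood at 37594 ± 16748 against 25213 ± 4979. Its ratio was 1.78 to 2.66 in class A and 0.581 to 1.57 in class B.

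In the 12495 low barcodes of the striatum the gap was smaller. Meg3 had a ratio of 0.555 (0.420 to 0.814), from 3471 ± 792 in low barcodes and 5984 ± 438 in cells. The neuronal mRNAs had 0.445 (0.409 to 0.528), Rian 0.465 and Mirg 0.506. Snhg11 was lower than these with 0.245 (0.162 to 0.321), and 166 of 7946 genes lay below it. Miat was as frequent in low barcodes as in cells (1.01, from 0.912 to 2.07), and Neat1 was higher (3.36, from 1.71 to 4.07). Malat1 had a ratio of 1.84 to 1.86 in class A and 0.801 to 1.18 in class B. The share of mitochondrial UMIs in these low barcodes also moved with class, from 1.72% to 2.78% in class A and from 4.70% to 11.4% in class B.

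Over all barcodes sorted by their UMIs, Meg3 and Snhg11 were higher in deeper barcodes and Neat1 lower. In motor cortex Meg3 went from 1107 CPM in barcodes of 500 to 999 UMIs, over 1460 (1000 to 1999), 4098 (2000 to 3999) and 7299 (4000 to under 8000), to 6700 in barcodes of 8000 or more. Snhg11 went from 341 to 3016 and 2644 in the same last 2 bins. Neat1 went from 1041 to 26.5. These bins hold different cells: glutamatergic neuron-like cells had a median of 7396 UMIs and endothelial-like cells of motor cortex 1594, so the slope describes the mixture of cells and not depth alone. Malat1 of the striatum stood at 44700 and 26462 in the first bin and at 12078 and 5261 in the last bin of the class A pools. The class B pools lay between 38764 and 45151 in the first bin and between 28018 and 49025 in the last.

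**Figure D3:**
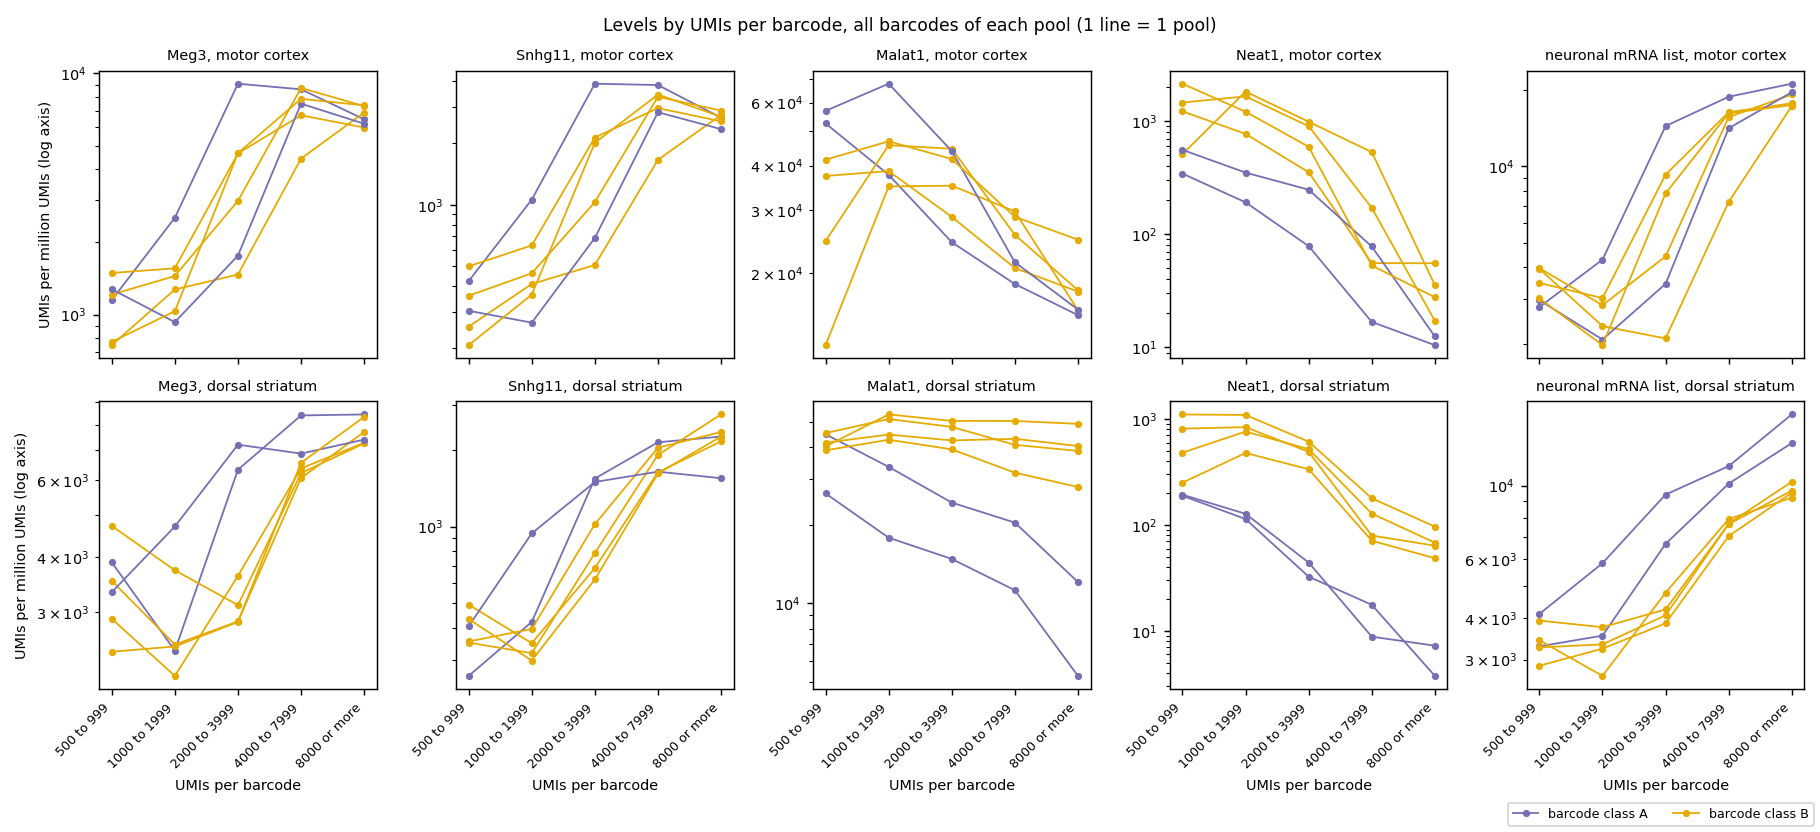
Level in CPM (log axis) of Meg3, Snhg11, Malat1, Neat1 and the summed neuronal mRNAs against the number of UMIs per barcode, with 1 line per pool, class A in purple and class B in yellow. In motor cortex the mean of Meg3 rises from 1107 to 6700 and that of Neat1 falls from 1041 to 26.5 between the first and the last bin.

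Members were also counted against the neuronal mRNA list in the same cells or barcodes. In neurons of motor cortex there were 41.1 ± 3.01 UMIs of Meg3 per 100 UMIs of the neuronal mRNA list. The low barcodes had 33.7 ± 10.2 (0.891 of the neuronal ratio, from 0.447 to 1.15 over pools), and by Snap25 alone 1.07 of it (0.545 to 1.68), with 3 of 6 pools below the neurons by either reference. Microglia-like cells had 10.8 ± 3.69 (0.226, from 0.203 to 0.458) and endothelial-like cells 10.1 ± 2.74. The list is not specific to neurons in these cells, and with Snap25 alone in its place the microglial ratio was 0.330 of the neuronal one. In oligodendrocyte-lineage cells Meg3 stood at 0.934 of the neuronal ratio by the list and at 2.57 by Snap25. In striatum the neurons had 82.6 ± 7.41, the low barcodes 99.6 ± 18.1 (1.24, from 0.904 to 1.49, and 2.35 by Snap25) and the microglia-like cells 31.9 ± 22.3 (0.233, from 0.221 to 1.02, and 0.476 by Snap25). Snhg11 had a lower ratio in low barcodes than in neurons in all 6 pools of either region by the list, 0.638 of it in motor cortex and 0.479 in striatum. By Snap25 it had 0.815 and 1.04, so the direction in striatum depended on the reference gene.

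Some neuron-like cells held almost no Malat1, and they held almost no Meg3 and Snhg11 either. This description was chosen after the data had been seen, has no test, and takes cells of 2000 to under 5000 UMIs with at most 1 UMI of Malat1. In motor cortex they were 133 of 4097 glutamatergic neuron-like cells (3.25%), 11 to 31 in each pool. In these cells together Meg3 had 26 UMIs, 64.6 CPM (exact Poisson 95% interval 42.2 to 94.7, for counting error only), against 8521 in the other glutamatergic neuron-like cells of the same depth range, a 132-fold lower level. The ratio lay between 0.00158 and 0.0111 in the 6 pools. Weighting the other cells to the same clusters and pools gave 9428, a gap as large.

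Snhg11 had 27 UMIs in the Malat1-poor cells, 67.1 CPM (44.2 to 97.7) against 3917, a 58.4-fold lower level. Miat had 2 UMIs, 4.97 CPM (0.602 to 18.0) against 194. Mirg had 0 UMIs in the 402236 counted, so that it was at least 8.55-fold lower at a floor of 3 UMIs over the whole group (63.7 CPM in the other cells). Rian was less far below. It had 83 UMIs, 206 CPM (164 to 256) against 516, a 2.5-fold lower level, with ratios of 0.213 to 0.564 over pools. The neuronal mRNAs were higher, with 23106 against 18613 CPM (1.24, from 1.09 to 1.46 over pools). These cells had 5.53% mitochondrial UMIs against 3.66% and a median of 2803 UMIs against 3650.

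Most genes did not share the gap. Of 2271 genes other than Malat1 with at least 100 CPM in the other glutamatergic neuron-like cells, 0.661% (15 genes) lay below a ratio of 0.1, and the median gene stood at 1.07. Meg3 ranked 4, Snhg11 ranked 6, Miat ranked 9 and Rian ranked 86 from the lowest. Of 28 of these genes annotated as long non-coding, antisense, processed transcript or to be experimentally verified, 8 lay below 0.1, against 6 of 2236 genes annotated as protein coding, Snhg11 among them. Kcnq1ot1, an imprinted antisense RNA (0.0140), and Snhg14, the host of the Prader-Willi small nucleolar RNAs (0.186), were low as well; these genes and Gas5 and Peg13 were picked from a listed set after their values were seen. Gas5, a spliced host gene exported to the cytoplasm, stood at 0.824 and Peg13 at 0.847.

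In striatum Malat1-poor spiny projection neuron-like cells were fewer, 32 of 9775 (0.327%), with 1 to 12 in a pool. Meg3 had 25 UMIs, 284 CPM (184 to 419) against 8140, a 28.7-fold lower level. Snhg11 had 8 UMIs, 90.7 CPM (39.2 to 179) against 2085, a 23.0-fold lower level, and Rian was 2.51-fold lower. The neuronal mRNAs stood at 1.18. These cells had 7.08% mitochondrial UMIs against 3.26% and a median of 2580 UMIs against 3392. Of 2174 genes other than Malat1, 0.598% (13 genes) lay below 0.1 and the median gene stood at 0.970. Cholinergic neuron-like cells (median 13680 UMIs) are not part of this description. At all depths 85.3% ± 7.68 of them had a UMI of Malat1, 84.5% of Meg3 and 83.5% of Snhg11. The shares in spiny projection neuron-like cells were 99.6%, 99.5% and 96.7%.

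**Figure D4:**
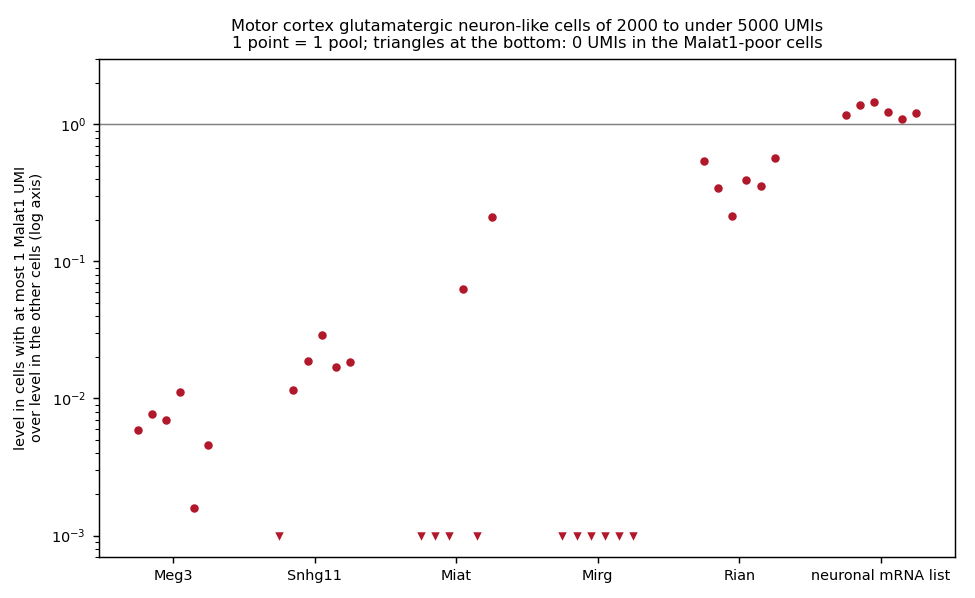
Level in motor cortex glutamatergic neuron-like cells with at most 1 Malat1 UMI over the level in the other cells of 2000 to under 5000 UMIs (log axis), with 1 point per pool and triangles for 0 UMIs in the Malat1-poor cells. Meg3 lies between 0.00158 and 0.0111 and Rian between 0.213 and 0.564, while the neuronal mRNAs lie above 1.

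Among all cells of these classes, Meg3 was also lower where Malat1 was lower, by a smaller ratio. Glutamatergic neuron-like cells were split into quintiles of Malat1, and Malat1 was left out of the total. Meg3 then stood at 5362, 6345, 6707, 7129 and 8343 CPM from the lowest to the highest quintile. The ratio of lowest to highest was 0.655 (0.570 to 0.671 over pools), lower in 6 of 6 pools. It was 0.683 in cortical interneuron-like, 0.758 in spiny projection and 0.548 in striatal interneuron-like cells. For Snhg11 the ratio was 0.693 in glutamatergic and 0.898 in spiny projection neuron-like cells, and for Rian 0.8 and 0.838. The neuronal mRNAs had 1.01 and 1.10. Median UMIs were 6761 in the lowest and 6260 in the highest glutamatergic quintile.

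The mitochondrial share of a cell, which rises in damaged cells, separated the members in another way in glutamatergic neuron-like cells. Between the lowest and the highest tercile of this share in glutamatergic neuron-like cells (medians 1.43% and 4.06%), the ratio of levels was 0.533 for Miat, 0.666 for Mirg and 0.677 for Rian, lower in 6 of 6 pools each. It was 0.886 for Meg3, 0.993 for Snhg11 and 0.922 for Malat1. Spiny projection neuron-like cells gave 0.508 for Miat, 0.671 for Mirg, 0.821 for Rian, 0.858 for Snhg11, 0.918 for Meg3 and 1.01 for Malat1. Snhg11, Meg3, Rian and Mirg were each lower in 6 of 6 pools of these cells. In cortical and striatal GABAergic interneuron-like cells Miat had 0.963 and 0.916, Mirg 0.776 and 0.79 and Rian 0.714 and 0.798. Neat1 went the other way in the striatal interneuron-like cells (3.73, from 1.45 to 11.8), higher in 6 of 6 pools. It had 0.732 in cortical interneuron-like, 0.902 in glutamatergic and 0.906 in spiny projection neuron-like cells. Depth differed between the terciles (medians of 8829 and 4965 UMIs in glutamatergic neuron-like cells), and its part in these ratios was not tested.

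Training stage was then compared within each region with edgeR's quasi-likelihood test on UMIs summed per pool and class, with stage and barcode class as terms, and a gene counted as called where its p, adjusted over all genes by Benjamini-Hochberg, was under 0.05. In the 5 neuron classes none of 102 combinations of member, class and contrast was called, against 0.00905% of all genes tested in these classes. Unadjusted p fell below 0.05 for 7, and DESeq2 called 0 of 105. With no gene filter 2 were called, without control replicate 1 there were 2, and 1 was called without control replicate 2, without early replicate 2 or without late replicate 1, all higher. Of all genes over all classes, 0.242% were called with no gene filter and 0.201% to 0.56% when 1 pool was left out. In the main edgeR comparison the smallest adjusted p of a member was 0.497, for Neat1 in spiny projection neuron-like cells, late against early.

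Meg3 of glutamatergic neuron-like cells differed from control by a log2 fold change of -0.23 (SE 0.14) in early and -0.10 (SE 0.13) in late pools, with edgeR adjusted p of 1.0 and 0.907. In spiny projection neuron-like cells Meg3 stood at 8901 and 7408 CPM in controls, 7256 and 7206 in early pools and 7819 and 8090 in late pools. Both early pools lay below both controls in these cells, as they did in glutamatergic and in cortical GABAergic interneuron-like cells, and the late pools of the spiny cells lay inside the range of the controls. The early against control log2 fold change was -0.09 (SE 0.16, edgeR adjusted p = 0.999) in spiny projection and -0.17 (SE 0.14, adjusted p = 0.938) in cortical interneuron-like cells. Snhg11 stood at 3186 and 2824 (control), 2608 and 2668 (early) and 2494 and 2864 (late) in glutamatergic neuron-like cells, and its log2 fold changes were -0.17 (SE 0.15) and -0.14 (SE 0.13). Malat1 of the same cells stood at 16601 and 18995, 15796 and 20158, and 15996 and 27035, with overlap of all 3 groups.

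Across the neuron classes the log2 fold changes of the members other than Neat1 lay between -0.64 and 0.60. Both ends were in RNAs that were low or moved with barcode class (Mirg and Malat1). Neat1 ranged from -0.79 to 1.58 on counts of a few CPM. With 2 pools a group and 2 residual degrees of freedom, differences within these standard errors were not detectable. Values of 2 pools of mice give only the spread between these pools.

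**Figure D5:**
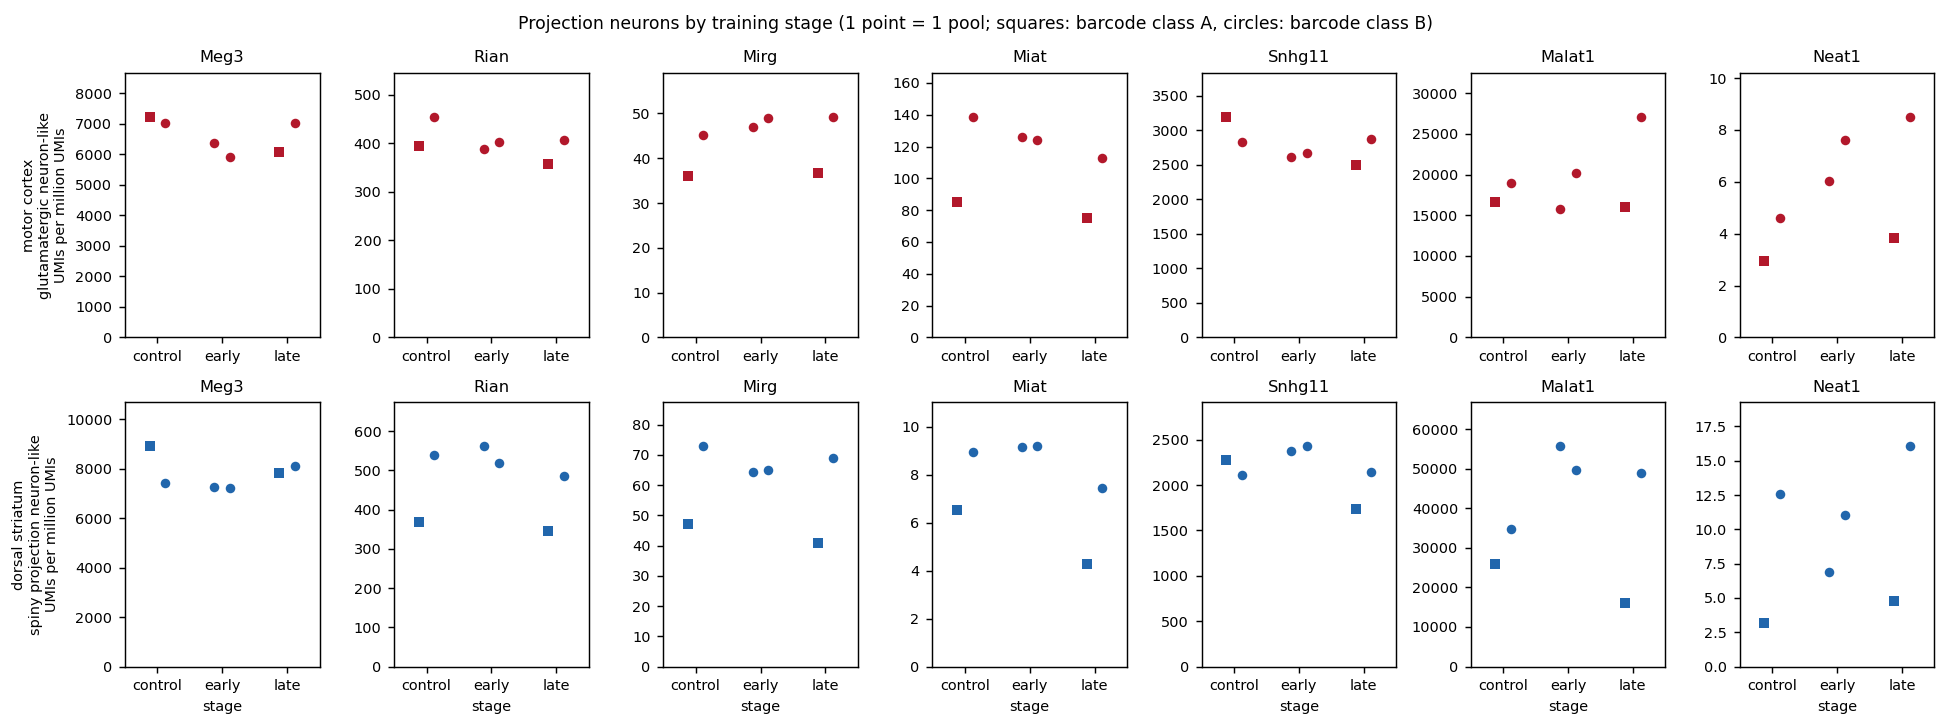
Level in CPM (axes from 0) of each RNA in glutamatergic neuron-like cells of motor cortex (upper row) and spiny projection neuron-like cells of the striatum (lower row) at each stage, with 1 point per pool, squares for class A and circles for class B. Groups overlap for Meg3 and Malat1 between control and late, and the class A pools are lowest for Miat and Mirg.

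Over all 23 combinations of class and region, 4 of 369 combinations were called (3 higher, 1 lower, 71 at an unadjusted p under 0.05), against 0.0297% of all genes tested. All 4 were Meg3 in cells that are not neurons. In perivascular macrophage-like cells of the striatum (31 to 66 cells per pool), Meg3 had 0 UMIs of 64044 in control replicate 1 and 51.0 CPM (5 UMIs) in control replicate 2. It stood at 375 and 901 in early and 398 and 451 in late pools, so the trained pools lay above both controls. The log2 fold change was 4.24 (SE 0.64, edgeR adjusted p = 0.000424) for early and 3.83 (SE 0.63, adjusted p = 0.00324) for late pools against control. In these comparisons 0.943% and 0.367% of genes were called. The neuronal mRNA list, which is not specific to neurons outside neuron classes, stood at 375 and 163 in controls, 938 and 1478 in early and 480 and 588 in late pools, above the controls as well, and its part in the Meg3 values was not tested. DESeq2 gave adjusted p of 0.322 and 0.0831, and with doublets kept edgeR gave 0.927 and 0.979.

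In fibroblast-like cells of the striatum, early against control, Meg3 was called higher (log2 fold change 4.21, SE 0.50, edgeR adjusted p = 0.0114, 0.235% of genes called), yet the pools overlapped, with 1610 and 49.4 in controls, 481 and 907 in early and 3737 and 68.3 CPM in late pools. The neuronal mRNAs of the same pools were 2246 and 375, 1004 and 1252, and 4015 and 437. DESeq2 with the barcode class term called it too (log2 fold change 4.13, adjusted p = 3.05e-06). Without the barcode class term the edgeR log2 fold change was -0.17, and without late replicate 1 or control replicate 2 the call was lost. In astrocyte-like cells of motor cortex, late against control, Meg3 was called lower (log2 fold change -1.41, SE 0.36, adjusted p = 0.0442, 0.186% of genes called). The pools held 140 and 64.6 (26 and 89 UMIs) in controls, 57.3 and 33.0 (35 and 10 UMIs) in early and 44.7 and 23.5 (128 and 9 UMIs) in late pools. Cells numbered 104 and 600 in the controls and 1706 and 209 in the late pools. The neuronal mRNAs were 2790 and 1898, 1323 and 1139, and 2042 and 1135. This call was lost with DESeq2 (adjusted p = 1.0), without the barcode class term and without any of 5 pools.

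The stage effect on Meg3 in astrocyte-like cells also differed between regions. The region by stage term of edgeR over 12 pools gave 1 called value among 98 combinations (29 at an unadjusted p under 0.05), against 0.00829% of all genes tested and 0.0094% for this class and contrast. The log2 fold change of Meg3, late against control, was lower in motor cortex than in striatum by a difference of -2.55 (SE 0.41, adjusted p = 0.00915, and 5.27e-05 with DESeq2). Striatal astrocyte-like cells held 700 and 291 CPM in controls, 473 and 618 in early and 1569 and 520 in late pools, so the striatal control and late groups overlapped. Within each barcode class the late striatal pool was above the control pool. The summed neuronal mRNAs there were 1227 and 920, 961 and 1072, and 1608 and 1102. The call was lost without any of 4 of the 12 pools: late replicate 1 or control replicate 2 of either region.

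Hemispheres were compared in the 4 trained pools of each region with the pool as a block, since the trained limb is driven from the contralateral side. edgeR called 0 of 101 combinations of member and class, against 0.0415% of all genes tested, with 10 at an unadjusted p under 0.05, and DESeq2 called 0. In glutamatergic neuron-like cells the log2 fold change of Meg3, contralateral against ipsilateral, was -0.04 (SE 0.04), that of Snhg11 -0.05 (SE 0.04) and that of Malat1 -0.02 (SE 0.04). Spiny projection neuron-like cells gave 0.00 (SE 0.07), -0.06 (SE 0.07) and -0.08 (SE 0.09). Neat1, at a few CPM, had -0.33 (SE 0.13) and 0.21 (SE 0.12), neither of which was called.

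Reporter state was the comparison in which members were called in neurons. Projection neurons with at least 1 UMI of tdTomato or of its WPRE tail were set against those with none in the same pool, as marks of cells active around the 4-OHT. In motor cortex 4 of 7 members were called, all lower in reporter-positive glutamatergic neuron-like cells, against 7.39% of all 16346 genes called in either direction and 3.18% called lower. The differences were small. Meg3 stood at 6417 CPM in positive and 7488 in negative cells of control replicate 1, at 6568 and 7186 in control replicate 2, at 5883 and 6612 in early replicate 1 and at 5365 and 6040 in early replicate 2. It was lower in positive cells in 6 of 6 pools, with ratios of 0.857 to 0.920 (log2 fold change -0.15, SE 0.02, edgeR adjusted p = 1.86e-10).

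Snhg11 had ratios of 0.877 to 0.915 over the 6 pools (log2 fold change -0.14, SE 0.02, edgeR adjusted p = 1.95e-09). Miat had 0.826 to 0.931 (-0.18, SE 0.03, adjusted p = 4.08e-05) and Rian 0.907 to 0.955 (-0.08, SE 0.02, adjusted p = 0.00684). Malat1 (-0.03, SE 0.02, adjusted p = 0.237), Mirg (-0.10, SE 0.05, adjusted p = 0.211) and Neat1 (-0.16, SE 0.13, adjusted p = 0.534) did not pass. Negative cells weighted to the clusters of the positive cells of their pool gave median ratios of 0.957 for Meg3, 0.937 for Snhg11, 0.893 for Miat and 0.954 for Rian, still below 1 in 6 of 6 pools each. Among cells of at least 4000 UMIs Rian lost its call (adjusted p = 0.122), as it did at a threshold of 2 reporter UMIs (0.648) and with DESeq2 (0.0966), and Miat lost its call at 2 reporter UMIs (0.342).

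Positive cells were deeper than negative cells in every motor cortex pool, for example with medians of 7707 against 5481 and 15575 against 11876 UMIs, and had a lower mitochondrial share. The share of positive cells was 13.6% to 29.3% of glutamatergic neuron-like cells, against 2.51% to 9.0% of microglia-like cells in the same libraries at 1333 to 2746 median UMIs. The part of reporter RNA from outside the cell in these shares was not tested. The neuronal mRNAs moved the other way, 1.02 to 1.04 times higher in positive cells. With negative cells weighted to the clusters of the positive cells, their ratio was 1.0 to 1.02. Uchl1 (1.09-fold), Stmn2 and Olfm1 (1.07-fold each) and Rtn1 (1.06-fold) were among those of the list called higher. Of 24 other listed long non-coding RNAs, of which Oip5os1 had no level here, Snhg6 was called higher (log2 fold change 0.20, adjusted p = 0.00158), and Snhg14 (0.923-fold, adjusted p = 0.00198) and the imprinted Peg13 (0.940-fold, adjusted p = 0.0407) lower, by edgeR. No gene for a paraspeckle or speckle protein was called.

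In spiny projection neuron-like cells of the striatum 0 of 7 members were called by edgeR, 2 had an unadjusted p under 0.05, and DESeq2 called 0, against 0.423% of 14420 genes called and 0.0832% called lower. Meg3 had ratios of 0.944 to 1.07 (log2 fold change 0.02, SE 0.01), Snhg11 0.992 to 1.02 (0.01, SE 0.01) and Malat1 0.968 to 1.06 (0.02, SE 0.01). Dlk1, the paternal coding gene of the Meg3 domain, was called higher in positive cells (1.34-fold, log2 fold change 0.42, SE 0.10, edgeR adjusted p = 0.0138), as was Camk2n1, an inhibitor of CaM kinase II (1.07-fold, adjusted p = 0.000299). Depth was close in the 2 states here, for example 5994 against 5641 UMIs. The difference between regions was not tested, and driver line and region cannot be told apart.

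Of the other listed genes, few were called between stages or regions. Paraspeckle and speckle protein genes, the 3 coding genes of the Meg3 domain and 24 other long non-coding RNAs had 0 calls by edgeR over all classes for stage, hemisphere and region by stage. Camk2n1, a neuronal mRNA, was called higher in early than in control perivascular macrophage-like cells of the striatum (7.67-fold, edgeR adjusted p = 0.0487), the class in which Meg3 was called. For the region by stage term in early against control, Camk2n1 (log2 difference -4.83, SE 0.83) and Rtn1 (-4.43, SE 0.91) were called lower in motor cortex in the same class. Snap25 was called in oligodendrocyte-like cells (-3.92, SE 0.59, adjusted p = 0.0436).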

How the data were processed

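Gene by barcode matrices of UMI counts were deposited by the authors for pooled hemispheres of mouse motor cortex and dorsal striatum (10x 3′ libraries, version 2 or 3, per the labels' protocols). The counts came from Cell Ranger 3.1.0 on GRCm38 (mm10), per the submitters' processing notes, and the matrix headers give software version 3.0.2. All deposited barcodes had at least 500 UMIs.

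Barcodes under 500 genes or 1000 UMIs, or over 20% mitochondrial UMIs, were left out. Scrublet in scanpy 1.11.5 marked doublets, which were removed. Cells of each region were clustered (leidenalg 0.10.2) and classes named from markers. Passing cells had median depths of 2048 to 5725 UMIs per library, and intervals cover counting error only. Levels are given per 1000000 UMIs (CPM). Raw counts were summed per pool and class and tested with edgeR 4.0.16 (R 4.3.3), p-values being adjusted over all genes by Benjamini-Hochberg. DESeq2 1.42.0 was an alternative. The other alternatives were scaling, gene and cell filters, doublets kept, no barcode class term, a replicate block and leaving out each pool. The test script was tested on simulated data. Replicate numbers follow accession order and mark no shared animals, but control 1 and late 1 of a region share a sequencing batch and barcode class. P-values for stage and for region by stage measure the spread between pools. Those for hemisphere and reporter state, where the pool was a block, measure the spread of differences within pools.

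The 7 RNAs and all lists were chosen with earlier results of these data known. All 7 are named whatever their values, with the 3 genes most alike to each and at most 5 called genes of a list per comparison. Some genes are not reported here.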

Additional observations from a re-analysis of the deposited data

Results flagged for a closer look

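The effect of late training on Meg3 in astrocyte-like cells differed between regions by the region by stage term (log2 fold change in motor cortex minus that in dorsal striatum -2.55, edgeR adjusted p = 0.00915). In motor cortex the control pools held 140 and 64.6 and the late pools 44.7 and 23.5 CPM (UMIs per 1000000 UMIs) of Meg3, lower in both late pools. These levels rest on 26 and 89 UMIs in the controls (104 and 600 cells) and 128 and 9 UMIs in the late pools (1706 and 209 cells). In striatum the control pools held 700 and 291 and the late pools 1569 and 520, which overlap. Within each barcode class the late striatal pool was above the control pool. The summed neuronal mRNAs were 2790 and 1898 in control and 2042 and 1135 in late pools of motor cortex. In striatum they were 1227 and 920 in control and 1608 and 1102 in late pools, and their part in the Meg3 values was not tested. The call was lost without late replicate 1 or control replicate 2 of either region.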

How the results depend on the processing

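The stage comparisons called 4 combinations of member and class. They called 0 with doublets kept, 1 with the stricter cell filter, 2 without the barcode class term, 29 with no gene filter and 12 to 22 when 1 pool was left out, while edgeR with RLE scaling called 5. The share of all genes called was 0.0297%, 0.0212% with doublets kept, 0.0289% with the stricter cell filter and 0.0027% without the barcode class term. It was 0.242% with no gene filter, 0.201% to 0.56% when 1 pool was left out and 0.0305% with RLE scaling. With DESeq2 the share was 0.00487% and with the replicate block 0.0306%. DESeq2 also called 4, but 1 higher and 3 lower against 3 higher and 1 lower, and 1 of the 4 calls of edgeR was kept. With the replicate block in place of the barcode class 4 were called, 4 higher and 0 lower, and 2 of the 4 calls with the barcode class term were kept. The numbers follow accession order and mark no shared animals, though control 1 and late 1 of a region share a batch and barcode class. Without the barcode class term, Meg3 in striatal fibroblast-like cells, early against control, reversed to a log2 fold change of -0.17. The hemisphere comparisons called 0, 2 with no gene filter and 0 to 2 when 1 pool was left out, beside 0.0415%, 0.115% and 0.0291% to 0.203% of all genes. The reporter comparisons called 4, 2 at a threshold of 2 reporter UMIs, 3 with DESeq2 and 3 to 5 when 1 pool was left out, beside 4.12%, 3.32%, 0.977% and 2.79% to 4.52% of all genes. The region by stage term called 1, and 1 to 6 when 1 pool was left out, an alternative chosen after seeing the data, beside 0.00829% and 0.00642% to 0.0498% of all genes. The cause was not tested. Over all genes the stage comparisons called 187, 17 without the barcode class term, 3579 with no gene filter and 1340 to 3782 when 1 pool was left out. Of single levels per class under the alternatives, 816 moved by less than the SD between pools and 127 by more, 57 of these with the class A pools alone and 42 with doublets kept. The stricter cell filter could not be fitted for stage in 8 classes with fewer than 20 cells in a pool.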
